A study of Mus musculus with 4 samples.

Results

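The cells described here are barcodes of embryonic mouse kidney defined by Egfl6, Sfrp4, Dkk2 and Smoc2, 4 genes that had been noticed as a group in the kidney stroma. A barcode, which stands for the RNA caught with 1 bead in a droplet and so usually for 1 cell, was a member when mitochondrially encoded genes took at most 10% of its UMIs, when Egfl6, Sfrp4, Dkk2 and Smoc2 together gave at least 2 UMIs, and when Lum, Ogn, Foxd1, Penk, Alx1, Pecam1 and Lhx1 gave 0 UMIs. A UMI is a molecular tag that counts 1 captured RNA molecule. Of 15144 deposited barcodes 251 were members, and 12399 were within the mitochondrial limit. The counts of these 11 genes chose the members, so their values are given as a description and carry no test.

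Kidneys of E14.5 embryos were dissociated and profiled by Drop-seq, which reads the 3′ end of each transcript. There were 2 libraries of mutants labelled Hoxa9,10,11 and Hoxd9,10,11 -/- and 2 libraries labelled wildtype. The background of all 4 was labelled mixed, mostly CD-1 and 129, and the series title frames the comparison as reduced Abd-B Hox function in kidney development. The labels do not say how many embryos went into a library or whether the libraries came from separate litters. The p-values therefore apply to these libraries only. Members numbered 31 in mutant 1 and 134 in mutant 2, against 24 in wildtype 1 and 62 in wildtype 2. Their summed depth was 120003 and 503456 UMIs in the mutant libraries, against 112680 and 359972 UMIs in the wildtype libraries. Median UMIs per member were 2928 and 2732.5 in mutants, against 3950.5 and 4713 in wildtype. In mutant libraries 19.6% and 29.1% of barcodes exceeded the mitochondrial limit, against 7.76% and 9.06% in wildtype libraries. Only 3 barcode sequences occurred in more than 1 library, and 0 of them were members.

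The renal stroma is the loose mesenchyme around the nephrons and the ureteric tree, and it gives rise to interstitial fibroblasts, pericytes and vascular smooth muscle. Its zones carry different genes: Foxd1 marks the cortical stroma, and the stroma around the medulla carries others. The 4 defining genes all encode secreted proteins. Dkk2 is a Dickkopf protein that binds the Wnt co-receptors Lrp5 and Lrp6, and Sfrp4 is a secreted Frizzled-related protein that binds Wnt ligands. Smoc2 is a calcium-binding matricellular protein, and Egfl6 is a matrix protein with EGF repeats. In mouse assembly mm10, Dkk2 lies at chr3:132085292-132180304, Smoc2 at chr17:14279506-14404790, Egfl6 at chrX:166523007-166585720 and Sfrp4 at chr13:19623104-19632994. The counts are per gene and do not say which exon a read came from.

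The 4 genes were not evenly spread over the members. Dkk2 was detected in 166 members, Smoc2 in 120, Egfl6 in 52 and Sfrp4 in 8. They contributed 471, 267, 83 and 14 UMIs in that order. Most members, 174, had UMIs of a single gene of the 4, while 61 had 2 of them, 14 had 3 and 2 had all 4. Dkk2 and Smoc2 were found together in 48 members, 10 in mutant 1 and 34 in mutant 2, against 2 in wildtype 1 and 2 in wildtype 2. Egfl6 and Dkk2 occurred together in 28 members.

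By its counts scaled to the library's summed UMIs (counts per 1e6, CPM) in members, Dkk2 stood at 392 and 586 CPM in the mutant libraries, against 453 and 217 CPM in the wildtype libraries. Egfl6 stood at 125 and 111 CPM in mutant members, against 0 and 33.3 CPM in wildtype members. Smoc2 was at 258 and 219 CPM in mutant members, against 231 and 278 CPM in wildtype members. Sfrp4 was at 25.0 and 7.95 CPM in mutant members, against 17.7 and 13.9 CPM in wildtype members. Egfl6 was thus the gene of the 4 whose 2 mutant values lay clear above its 2 wildtype values, and the ranges of the other 3 overlapped. Wildtype 1 held no Egfl6 UMI in 24 members, which allows a level of up to 26.6 CPM from counting alone.

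Over all barcodes within the mitochondrial limit, Dkk2 stood at 109 and 127 CPM in mutants, against 43.8 and 19.1 CPM in wildtype. Egfl6 there stood at 25.1 and 23.2 CPM in mutants, against 13.2 and 6.95 CPM in wildtype. Smoc2 stood at 44.4 and 47.2 CPM in mutants, against 36.0 and 32.7 CPM in wildtype. Both mutant libraries lay above both wildtype libraries for each of these 3 genes, and for Sfrp4, at 4.23 and 4.60 CPM in mutants against 8.62 and 1.81 CPM in wildtype, they did not.

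The excluded genes removed most barcodes that carried the 4 genes. At least 2 UMIs of the 4 were found in 1208 barcodes within the mitochondrial limit, 125 and 660 in mutants against 162 and 261 in wildtype. Of these, 957 carried an excluded gene: Ogn in 410, Lum in 401, Penk in 374, Foxd1 in 344, Lhx1 in 173, Pecam1 in 57 and Alx1 in 54. Of the 115 barcodes with Sfrp4, 93.0% had an excluded gene, and of the 320 with Egfl6 83.8% did. For Dkk2 it was 81.0% of 874 barcodes and for Smoc2 81.2% of 639. The members are therefore a minority of the cells with these transcripts, namely those in which no transcript of the Lum and Ogn, Foxd1, or Penk and Alx1 stroma was caught.

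At the threshold, 124 members had exactly 2 UMIs of the 4 genes and a median of 3286 UMIs in all. A further 422 barcodes had 1 UMI, carried none of the excluded genes and stayed outside, with a median of 2392 UMIs. Epithelial genes, as counted below, reached 2 UMIs in 20.2% of the 124, and in 17.8% of the 422. Collagen and Pdgfr genes reached 2 UMIs in 71.0% of the 124, and in 55.9% of the 422.

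The label of the set is stroma, and not all members carried stromal genes. Of the 251, 192 (76.5%) had at least 2 UMIs summed over Col1a1, Col1a2, Col3a1, Pdgfra and Pdgfrb, the fibrillar collagen and PDGF receptor genes of mesenchyme. Another measure counted Epcam, Cdh1, Krt8 and Krt18, the adhesion and keratin genes of epithelium, and 51 members (20.3%) had at least 2 UMIs of these. Both conditions held in 9 members and neither in 17. The epithelial share was 19.4% of 31 members in mutant 1 and 10.4% of 134 in mutant 2, against 25.0% of 24 in wildtype 1 and 40.3% of 62 in wildtype 2. With each member thinned to 1000 UMIs, which left out 25 shallower members, it was 19.2% and 5.93% in mutants, against 13.04% and 30.5% in wildtype. The 2 genotypes overlapped at that depth. In 3 other stromal gates built in the same way, and described with the comparison to them, the share was 1.41% of 354, 5.05% of 436 and 0.855% of 351 barcodes. Median depth was 3298 UMIs in members and 2848, 3989.5 and 2919 UMIs in those gates.

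The split followed the leading gene, that is, the gene of the 4 with the most UMIs in a barcode. Dkk2 led in 121 members, Smoc2 in 70, Egfl6 in 23 and Sfrp4 in 2, and 35 were tied. Of the Dkk2-led members 91.7% carried the collagen and Pdgfr genes and 1 carried the epithelial genes (0.826%). Of the Smoc2-led members 55.7% carried the epithelial genes and 52.9% the collagen and Pdgfr genes. Of the Egfl6-led members 30.4% carried the epithelial genes and 56.5% the others. Where Dkk2 and Smoc2 were found together, 44 of 48 members had collagen and Pdgfr genes and 2 had epithelial genes. The name stroma thus describes the Dkk2-led barcodes, while the Smoc2-led ones were a mixture, and the set is called here by its rule. These groups were cut from the same counts after their values were known, so the following values by leading gene are descriptions with no test. They are in CPM without further scaling.

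Dkk2-led members carried genes of perivascular and contractile cells. Mgp, which encodes matrix Gla protein, an inhibitor of calcification, had 394 and 360 CPM in mutants and 469 and 612 CPM in wildtype, and at most 12.2 CPM in Smoc2-led members. Gucy1a3, a subunit of the nitric oxide receptor soluble guanylate cyclase, had 428 and 474 CPM in mutants and 163 and 281 CPM in wildtype. Mef2c, a transcription factor of muscle and vascular cells, had 308 and 244 CPM in mutants and 530 and 116 CPM in wildtype. All 3 genes were picked for being higher in Dkk2-led than in Smoc2-led members in every library, so that order is no finding. The genes were not limited to Dkk2-led members. In the Penk and Alx1 gate described below, Gucy1a3 had 535 and 522 CPM in mutants and 531 and 272 CPM in wildtype.

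Akr1b7, an aldo-keto reductase known in the mouse kidney from renin-lineage cells, had 51.4 and 73.4 CPM in mutant Dkk2-led members, against 306 and 314 CPM in wildtype ones. It was at 0 UMIs in all Smoc2-led and Egfl6-led members, and it too was picked by its order between Dkk2-led and Smoc2-led members. The wildtype values lay above the mutant ones, but they come from 13 and 23 wildtype barcodes and were not tested. Kcnj8 and Abcc9, the pore and the regulatory subunit of the KATP channel of pericytes, were also found here. Kcnj8 had 68.5 and 96.8 CPM in mutants and 204 and 124 CPM in wildtype. Abcc9 had 68.5 and 83.4 CPM in mutants and 40.8 and 33.1 CPM in wildtype. Rgs5, a pericyte regulator of G-protein signalling, was at 0 and 140 CPM in mutants and 245 and 82.8 CPM in wildtype. Acta2, smooth muscle actin, had 137 and 287 CPM in mutants and 326 and 166 CPM in wildtype. Over the whole list of 10 smooth muscle and mural markers, the summed level in Dkk2-led members was 462 and 768 CPM in mutants and 1122 and 588 CPM in wildtype. Over barcodes outside the set it was 201 and 294 CPM in mutants and 147 and 104 CPM in wildtype. In each library the Dkk2-led members were higher, and 0 of the 10 markers were without a UMI in them. The gate of Lum and Ogn reached like sums, 419 and 627 CPM in mutants and 919 and 661 CPM in wildtype. Acta2 there had 230 and 431 CPM in mutants and 313 and 283 CPM in wildtype, above the Dkk2-led value except in wildtype 1. The 10 markers summed to 283 and 800 CPM in mutants and 473 and 229 CPM in wildtype in the Penk and Alx1 gate. That was above the Dkk2-led sum in mutant 2 only.

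Smoc2-led members carried genes of the ureteric tree. Of the genes given here, Krt18, Epcam, Fxyd4 and Cldn8 were picked for being lower in Dkk2-led members in every library, so that order is no finding. Krt18 had 1487 and 560 CPM in mutants and 398 and 1019 CPM in wildtype, and at most 8.28 CPM in Dkk2-led members. Epcam had 1310 and 743 CPM in mutants and 232 and 886 CPM in wildtype. Fxyd4, which regulates the Na,K-ATPase of the collecting duct, had 779 and 134 CPM in mutants and 182 and 251 CPM in wildtype, and was at 0 in Dkk2-led members. Cldn8, a tight junction protein of the distal nephron and collecting duct, had 425 and 170 CPM in mutants and 133 and 267 CPM in wildtype, and was also at 0 in Dkk2-led members. Ret, the GDNF receptor of the ureteric bud tip, was at 0 except for 10.7 CPM in wildtype 2. The list of 9 ureteric bud and collecting duct markers summed to 4107 and 2240 CPM in mutants and 1491 and 3393 CPM in wildtype. In Dkk2-led members it summed to 171 and 164 CPM in mutants and 347 and 108 CPM in wildtype, with Ret, Wnt9b and Calb1 at 0. Gata3, a transcription factor of the ureteric tree that is also known from mesangial and other stromal cells, was not split in this way. It had 120 and 107 CPM in mutants and 326 and 57.9 CPM in wildtype in Dkk2-led members, and 248 and 207 CPM in mutants and 116 and 261 CPM in wildtype in Smoc2-led members.

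Egfl6-led members were few, 5 and 15 in mutants against 0 and 3 in wildtype. They carried Ly6a, a surface antigen of the Ly6 family, at 1111 and 345 CPM in mutants and 1134 CPM in wildtype 2. Dpp4, a brush-border peptidase, had 117 and 470 CPM in mutants and 504 CPM in wildtype 2. The 6 proximal tubule markers summed to 0 and 392 CPM in mutants and 714 CPM in wildtype 2, with Cubn at 0. All 6 were at 0 in Dkk2-led members. The 6 loop and distal tubule markers summed to 1228 and 78.3 CPM in mutants and 378 CPM in wildtype 2, and the 9 ureteric markers to 1404 and 219 CPM in mutants and 420 CPM in wildtype 2. Mutant 1 was thus high for these 2 lists and at 0 for the proximal tubule list. Its values come from 5 barcodes with only 17098 UMIs in all, and whether the libraries differ was not tested.

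**Figure D1:**
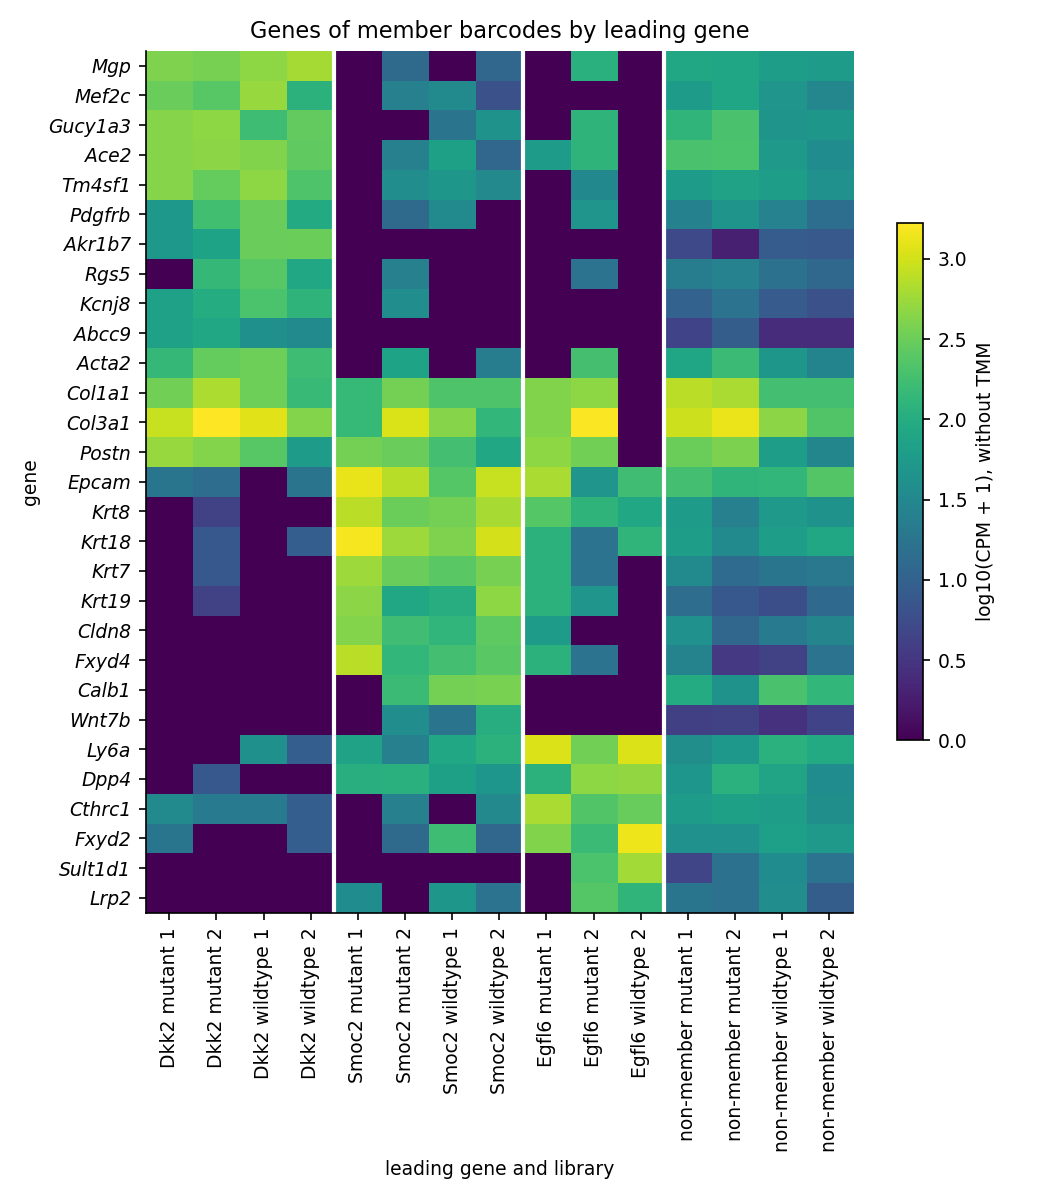
Levels of genes in members led by Dkk2, Smoc2 or Egfl6 and in barcodes outside the set, one column per library, mutants left of wildtype within each group, colour as log10(CPM + 1). Mgp, Gucy1a3, Kcnj8, Abcc9 and Acta2 were higher in the Dkk2-led columns than outside the set in each library. Rgs5 was too, except in mutant 1, where it was at 0 CPM in Dkk2-led members. Krt18, Epcam, Cldn8 and Fxyd4 were high in the Smoc2-led columns. Wildtype 1 has no Egfl6-led column because it held 0 such members.

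Markers of other cell types varied in level among members. The 8 immune markers summed to 16.7 and 13.9 CPM in mutants and 0 and 27.8 CPM in wildtype, with C1qc at 0. The 8 endothelial markers, of which the rule itself had set Pecam1 to 0, summed to 41.7 and 75.5 CPM in mutants and 71.0 and 2.78 CPM in wildtype. The 6 podocyte markers summed to 41.7 and 105 CPM in mutants and 8.87 and 13.9 CPM in wildtype, with Ptpro among those at 0. The 5 mesothelial markers summed to 133 and 71.5 CPM in mutants and 53.2 and 281 CPM in wildtype. Outside the set they summed to 23.5 and 13.1 CPM in mutants and 9.88 and 13.1 CPM in wildtype. Of the sums in members, Krt19 alone gave 125 and 21.8 CPM in mutants and 53.2 and 247 CPM in wildtype. Krt19 is also among the epithelial genes that set members apart from other stromal gates below. The 6 early nephron markers, of which the rule had set Lhx1 to 0, summed to 167 and 248 CPM in mutants and 435 and 408 CPM in wildtype. Outside the set they summed to 494 and 737 CPM in mutants and 884 and 868 CPM in wildtype. The 6 loop and distal tubule markers summed to 183 and 67.5 CPM in mutants and 88.7 and 72.2 CPM in wildtype. The 7 erythroid markers summed to 267 and 729 CPM in mutants and 204 and 14045 CPM in wildtype. The wildtype 2 value included 1 barcode in which haemoglobin took 47.9% of 9376 UMIs, where the median member had 0.0460%. Of 140 immune-marked barcodes 0 met the rule, which allows a share of up to 2.14%, and of 285 podocyte-marked barcodes 0 did, which allows up to 1.05%. Of 36 barcodes with proximal tubule markers 2 met it. Median depth was 2927.5, 4013 and 8241 UMIs in these 3 classes. These limits and the intervals below cover counting error only.

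Members made up a larger share of mutant than of wildtype libraries. They were 3.63% of 853 barcodes within the mitochondrial limit in mutant 1 (exact Clopper-Pearson 95% interval 2.48% to 5.12%) and 2.94% of 4557 in mutant 2 (2.47% to 3.47%). They were 1.23% of 1949 barcodes in wildtype 1 (0.791% to 1.83%) and 1.23% of 5040 in wildtype 2 (0.944% to 1.57%). The mean share was 3.29% ± 0.491 in mutants and 1.23% ± 0.000878 in wildtype (SD, n = 2 each), a ratio of 2.67. Both mutant libraries lay above both wildtype libraries. The exact two-sided permutation test over libraries gave p = 0.333, the smallest value 2 against 2 libraries allow. The direction was the same with each barcode thinned to 1000 UMIs, at 2.75% and 2.19% in mutants against 1.18% and 0.327% in wildtype, and thinned to 2000 UMIs, at 3.39% and 2.74% against 0.969% and 0.921%. It was also the same when members with any UMI of Epcam, Cdh1, Krt8 or Krt18 were left out, at 2.81% and 2.41% in mutants against 0.872% and 0.615% in wildtype. Where UMIs of at least 2 of the 4 genes were required, the shares were 1.52% and 1.18% in mutants and 0.103% and 0.159% in wildtype. The share of barcodes lost to the mitochondrial limit differed between the genotypes as given above, and its part in the member share was not tested. With no such limit the shares were 3.39% and 2.86% in mutants and 1.33% and 1.19% in wildtype.

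The larger share was not the same for every leading gene. Dkk2-led members were 1.52% and 1.58% of the barcodes within the mitochondrial limit in mutants, against 0.667% and 0.456% in wildtype. Smoc2-led members were 0.586% and 0.549% in mutants, against 0.513% and 0.595% in wildtype, so the groups overlapped. Egfl6-led members were 0.586% and 0.329% in mutants, against 0 and 0.0595% in wildtype, where the count of 0 allows up to 0.154%. Tied members were 0.938% and 0.461% in mutants, against 0.0513% and 0.0992% in wildtype. Whether these differences differ from each other was not tested. Among the barcodes of the 4 stromal gates, members were 25.2% and 23.3% in mutants, against 13.6% and 11.99% in wildtype. There the Lum/Ogn gate also held more in mutants, 40.7% and 38.4% against 19.3% and 9.48%, so a larger share was not particular to the members. Within the mitochondrial limit, 14.65% and 14.48% of mutant barcodes had at least 2 UMIs of the 4 genes, against 8.31% and 5.18% in wildtype. Members were 24.8% and 20.3% of these in mutants, against 14.8% and 23.8% in wildtype, so the genotypes overlapped. Outside the set, collagen and Pdgfr genes reached 2 UMIs in 57.7% and 61.4% of mutant barcodes, against 37.0% and 31.9% in wildtype.

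**Figure D2:**
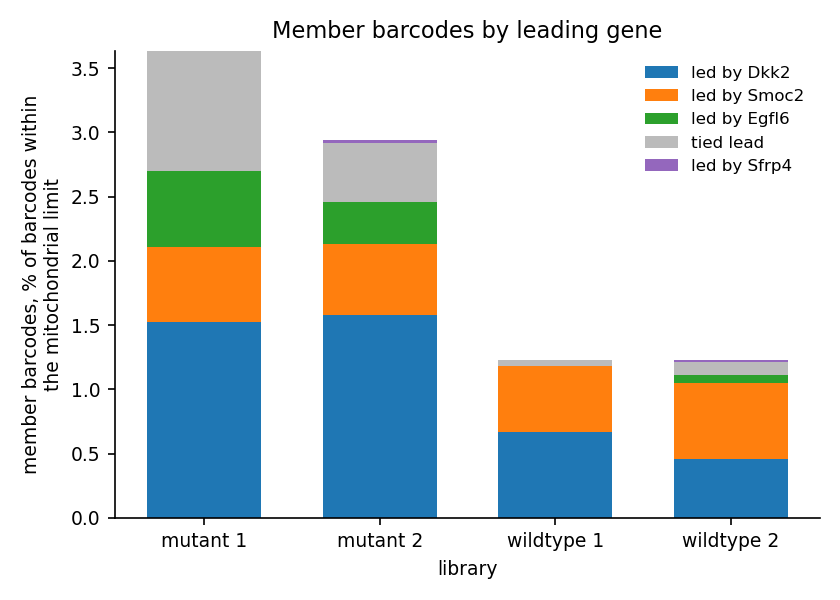
Members as a percentage of the barcodes within the mitochondrial limit, one bar per library, mutants left of wildtype, split by leading gene. The bars reach 3.63% and 2.94% in mutants and 1.23% in each wildtype library, and the Smoc2-led segment is of like height in all 4.

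The members were next set against 3 other stromal gates of the same barcodes, each with at least 2 UMIs of its own genes and 0 of the other gates' genes, Pecam1 and Lhx1. These were the gate of Lum and Ogn (354 barcodes), that of Foxd1, Ntn1 and Crabp1 (436) and that of Penk and Alx1 (351). Counts were summed per library and gate and tested with edgeR's quasi-likelihood test, with the library as a block and Benjamini-Hochberg adjustment over all genes. The 13 gate genes were left out of the test. The p-values of this fit rest on counting noise and an average spread, since for most genes it found no gene-specific spread beyond it. A very small p therefore does not stand for close agreement between libraries. Because barcodes with Lum, Ogn, Foxd1, Penk and Alx1 were removed from the members and required in the gates, genes that go with those 5 could differ through the cut alone. Of 6512 genes, 418 (6.42%) passed the threshold of 0.05. Of these 263 (4.04%) were higher and 155 (2.38%) lower in members, and 934 genes had an unadjusted p under 0.05.

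The genes with the largest differences upward were epithelial. Levels for these tests are CPM scaled by TMM, a correction for RNA composition, and the value for the gates is the mean of the 3. Krt18 had 385 and 96.5 CPM in mutant members and 208 and 612 CPM in wildtype members, against 4.26 and 5.07 CPM in mutant gates and 6.57 and 12.9 CPM in wildtype gates. Its log2 difference, the members minus the mean of the log2 levels of the 3 gates, was 5.44 (SE 0.27, edgeR adjusted p = 4.08e-85). Krt7, another simple-epithelium keratin, had 166 and 53.0 CPM in mutant members and 130 and 202 CPM in wildtype members, against 0 to 4.18 CPM in the gates (log2 difference 5.95, SE 0.44, edgeR adjusted p = 3.11e-39). In all 4 libraries the members lay above the gates, and mutant 2 was the lowest library of the members for both genes.

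The other genes named by the same rule were of the same kind. Fxyd4, with a log2 difference of 5.96, Cldn4 with 5.88, Krt19 with 5.78 and Cldn8 with 5.68 passed in every setting in which they could be tested. Foxq1, a forkhead transcription factor, had 85 UMIs in members and 4 in the gates, and Tspan8, a tetraspanin, had 74 and 5. Neither passed with DESeq2 or without wildtype 2. Spink8, Sprr2g and Rhcg, the last an ammonia transporter of the collecting duct, had 60, 60 and 32 UMIs in members and 2, 3 and 1 in the gates. None of these 3 passed with DESeq2, and Spink8 did not pass without wildtype 2. Without mutant 2 the log2 differences of Krt18, Krt7, Fxyd4, Cldn4, Krt19 and Cldn8 were larger, between 6.74 for Cldn8 and 7.71 for Krt7. Of the 9 ureteric bud and collecting duct markers 6 could be tested, and all 6 were higher in members (Calb1, Cdh1, Epcam, Gata3, Krt8, Krt18), with a median log2 difference of 4.38 where the median of all genes was -0.00. Their summed level in members was 1250 and 508 CPM in mutants and 950 and 2134 CPM in wildtype, and no marker of the list was at 0. When members with any UMI of Epcam, Cdh1, Krt8 or Krt18 were left out, and likewise when only Dkk2-led members were kept, none of the 12 genes with the largest differences upward had enough counts to be tested.

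Gata3 was the member of the stromal transcription factor list that stood apart. It had 131 and 92.7 CPM in mutant members and 200 and 188 CPM in wildtype members, against 0 and 5.76 CPM in mutant gates and 14.1 and 18.7 CPM in wildtype gates. The log2 difference was 4.18 (SE 0.31, edgeR adjusted p = 3.14e-38), and it was 3.65 without the epithelial barcodes and 4.002 with Dkk2-led members alone. Without mutant 2 it was 6.01, past the threshold. Akr1b7 had 26.2 and 41.6 CPM in mutant members and 130 and 107 CPM in wildtype members, against 0 and 0 CPM in mutant gates and 15.5 and 10.3 CPM in wildtype gates. Its log2 difference was 5.15 (SE 0.58, edgeR adjusted p = 1.79e-16), and 5.81 and 6.17 in the same 2 settings. These 78 UMIs in members compare with 35 in the far larger gates. Kcnj8 had 35.0 and 64.3 CPM in mutant members and 86.8 and 42.1 CPM in wildtype members, against 18.98 and 39.5 CPM in mutant gates and 30.1 and 12.3 CPM in wildtype gates. Its log2 difference of 1.49 (SE 0.34, edgeR adjusted p = 0.000427) was 1.46 without mutant 2 and no longer passed there. Gata3 lies at chr2:9857078-9890034, Akr1b7 at chr6:34412334-34423142 and Krt18 at chr15:102028180-102032027. Npnt, nephronectin, the integrin ligand of kidney basement membranes, was higher at a log2 difference of 2.96 (SE 0.32, edgeR adjusted p = 1.26e-17), and at 3.69 without mutant 2.

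Genes of stromal identity and matrix were lower. Tcf21, a transcription factor of kidney mesenchyme, had 78.7 and 87.0 CPM in mutant members and 69.4 and 132 CPM in wildtype members, against 246 and 394 CPM in mutant gates and 436 and 524 CPM in wildtype gates. Its log2 difference was -1.89 (SE 0.16, edgeR adjusted p = 3.12e-28), and it was -1.39 without the epithelial barcodes, still past the threshold. Pid1, an adaptor protein, had 0 and 5.68 CPM in mutant members and 0 and 8.43 CPM in wildtype members, against 26.1 and 47.6 CPM in mutant gates and 61.3 and 54.6 CPM in wildtype gates (log2 difference -2.99, SE 0.50, edgeR adjusted p = 1.36e-07). These are 6 UMIs in members, and Pid1 did not pass without mutant 2, at -3.62, while without wildtype 2 it was -4.90 and passed. Dcn, decorin, a small proteoglycan of collagen fibrils, had 166 and 176 CPM in mutant members and 165 and 84.3 CPM in wildtype members, against 884 and 812 CPM in mutant gates and 597 and 443 CPM in wildtype gates. Its log2 difference of -1.02 (SE 0.15, edgeR adjusted p = 3.13e-09) no longer passed without wildtype 2, at -0.49, or without the epithelial barcodes, at -0.36. Against single gates Dcn was lower than in Lum/Ogn barcodes, at -3.56, and higher than in Foxd1/Ntn1/Crabp1 barcodes, at 1.17.

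Col1a1, a chain of type I collagen, had 429 and 602 CPM in mutant members and 252 and 185 CPM in wildtype members, against 1260 and 1059 CPM in mutant gates and 650 and 613 CPM in wildtype gates. Its log2 difference of -0.92 (SE 0.12, edgeR adjusted p = 1.62e-13) was -0.29 without the epithelial barcodes and did not pass. It was -2.40 against Lum/Ogn barcodes and 0.02 against Foxd1/Ntn1/Crabp1 barcodes. Among the 12 genes with the largest differences downward, 10 could be tested in the set without epithelial barcodes and 2 passed there, Pid1 and Tcf21. With Dkk2-led members alone 3 passed, Pid1, Tcf21 and Thy1, a surface glycoprotein of fibroblasts and neurons. The other genes of those 12 were Negr1, Col23a1, Tshz3, Pappa, Sct, Col5a1, Nkain4, Gfod2 and Nexn. They had between 3 and 63 UMIs in members. Without mutant 2 Negr1, Thy1, Sct, Nkain4, Gfod2 and Nexn did not pass, without wildtype 1 Negr1, Sct and Gfod2 did not, and without wildtype 2 Negr1, Thy1, Sct, Col5a1, Nkain4 and Nexn did not.

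**Figure D3:**
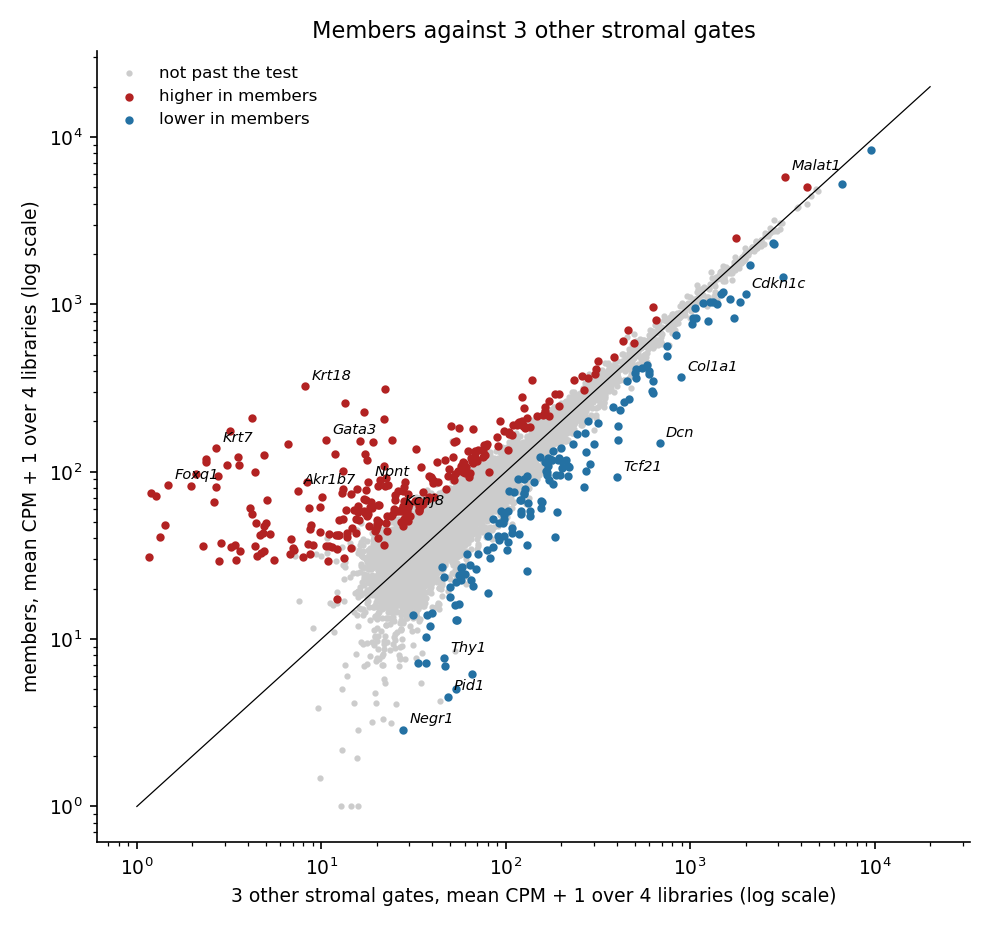
Mean TMM-scaled CPM + 1 of each of 6512 genes over the 4 libraries in members (vertical, log scale) against the mean of the 3 other stromal gates (horizontal, log scale). Genes past the threshold are coloured by direction, 263 higher and 155 lower in members; Krt18 and Krt7 lie far above the diagonal and Tcf21 and Pid1 below it.

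By gene group, 7 of 18 tested collagen genes were lower in members (Col1a1, Col1a2, Col3a1, Col5a1, Col6a1, Col16a1, Col23a1) and 2 were higher, Col4a1 and Col18a1, which encode basement membrane collagens. Their median log2 difference was -0.76. Of 27 other matrix genes 9 were lower, Dcn, Bgn, Fbln1 and Vcan among them, and 3 were higher, Npnt, Postn and Efemp1 (median -0.62). Postn was above the Foxd1/Ntn1/Crabp1 and Penk/Alx1 gates in each library, but above the Lum/Ogn gate in wildtype 1 only. By CPM without TMM it had 542 and 405 CPM in mutant members and 204 and 72.2 CPM in wildtype members. Lum/Ogn barcodes had 726 and 1182 CPM of Postn in mutants and 196 and 205 CPM in wildtype. Of 30 stromal transcription factors 11 were lower, with Tcf21, Meis1, Meis2 and Prrx1 among them, and 3 were higher, Gata3, Sox4 and Tbx3 (median -0.46). Of the 12 markers fixed for stroma in general 9 were lower and 0 higher (median -0.89). All these shares were above the 2.38% of all genes that were lower. The median over all tested genes was -0.00. The lists were chosen with results of these data known, and the epithelial share of members differed from that of the gates as given above. Its part in these counts was not tested, but without the epithelial barcodes 51 genes passed in place of 418, of which 30 were shared.

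The 4 defining genes act on Wnt signalling or matrix, so the other genes of those pathways were listed. Over all tested genes, 4.04% were higher and 2.38% lower in members. Of the Wnt ligands 2 could be tested and neither passed, and of 6 secreted Wnt modulators 0 passed. Among 6 Wnt receptors, Fzd1 was lower in members, at a log2 difference of -1.30 (SE 0.28, edgeR adjusted p = 0.000183), and it did not pass without mutant 2, at -0.74, without wildtype 1, at -1.08, without the epithelial barcodes, at -1.05, or with Dkk2-led members alone, at -0.84. Among 5 Wnt target genes, Nkd1, an inhibitor induced by Wnt signals, was lower, at -1.22 (SE 0.33, edgeR adjusted p = 0.00526). It did not pass without wildtype 2, at -0.08, without mutant 2, at -1.24, with DESeq2, at -1.03, without the epithelial barcodes, at -0.93, or with Dkk2-led members alone, at -1.48. Of 16 tested genes of the BMP and TGF-beta pathway 0 passed. Of 12 smooth muscle and mural genes 2 were higher, Akr1b7 and Kcnj8, and 2 were lower, Tagln and Tpm2, both of the contractile apparatus (median 0.29). Of 6 integrins 2 were higher, Itga1 and Itga6. Of 9 retinoic acid genes 1 was higher, Aldh1a3, a retinaldehyde dehydrogenase, at 2.94, and 1 was lower. Aldh1a3 was 4.82 without mutant 2 and did not pass without wildtype 2, at 3.19, or without the epithelial barcodes, at 1.86.

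Of 17 Hox genes tested, 4 were higher (Hoxb6, Hoxb7, Hoxb8, Hoxd3) and 3 lower (Hoxa10, Hoxd10, Hoxd11) in members, with a median of -0.26. For this and the following lists, the shares over all tested genes were 4.04% higher and 2.38% lower. Hoxa10 was lower at a log2 difference of -0.96 (SE 0.18, edgeR adjusted p = 6.22e-06) and Hoxd11 at -1.15 (SE 0.22, edgeR adjusted p = 7.58e-06). Neither passed without the epithelial barcodes, at -0.52 and -0.47. Hoxa10 did not pass without wildtype 2, at -0.76, nor Hoxd11 with Dkk2-led members alone, at -0.79. Of 11 imprinted genes H19 was higher and Cdkn1c and Mest lower. In both wildtype libraries Cdkn1c was lower in members than in each of the 3 gates. In both mutant libraries it was lower than in the Foxd1/Ntn1/Crabp1 gate only, by the values given with the interaction below. H19 was not past the threshold in Dkk2-led members alone, at 0.07, or without the epithelial barcodes, at 0.15. Of 15 S phase genes 1 was lower, and of 15 genes of G2 and M phase 0 passed. Of 7 immediate early and stress genes 4 were higher (Egr1, Ier2, Jun, Jund), with a median of 0.70. Malat1, a nuclear RNA whose share goes up with the share of nuclear RNA in a barcode, was higher in members at 0.84 (SE 0.07, edgeR adjusted p = 1.04e-34), and 0.01 in Dkk2-led members alone. It had 9665 and 16032 CPM in mutant Smoc2-led members and 4854 and 5777 CPM in wildtype ones.

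The genotype comparison within members summed their counts per library and set 2 mutant sums against 2 wildtype sums in edgeR's quasi-likelihood test. The 11 genes of the rule were left out. Of 4515 genes 6 passed (0.133%), 5 higher (0.111%) and 1 lower (0.0221%) in mutants, and 223 had an unadjusted p under 0.05. In 1441 genes (31.9%) the 2 genotypes did not overlap. Non-overlap of 2 against 2 values was thus common, and it is given below as a description only. The 6 shared an adjusted p of 0.0459, so each stood close to the threshold. A predicted gene among the 5 higher ones is counted and not named.

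Dlk1, a membrane protein of the Notch ligand family that is expressed from the paternal allele in many embryonic tissues, had 438 and 819 CPM in mutant members, against 60.4 and 113 CPM in wildtype members. Its log2 fold change was 2.78 (SE 0.49, edgeR adjusted p = 0.0459). Meg3, a long noncoding RNA expressed from the maternal allele of the same imprinted cluster, had 1349 and 1351 CPM in mutant members, against 337 and 235 CPM in wildtype members (log2 fold change 2.26, SE 0.42, edgeR adjusted p = 0.0459). Both mutant values lay above both wildtype values for each gene. Dlk1 lies at chr12:109452823-109463336 and Meg3 at chr12:109541001-109571726. Dlk1 did not pass without wildtype 1, at 2.45, and its log2 fold change was 3.41 without wildtype 2. Meg3 did not pass without wildtype 1, at 2.49, or without wildtype 2, at 2.01.

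Igf1, insulin-like growth factor 1, a growth factor of mesenchyme, had 131 and 431 CPM in mutant members, against 43.2 and 11.1 CPM in wildtype members (log2 fold change 3.79, SE 0.71, edgeR adjusted p = 0.0459). Of its 245 UMIs, 221 came from mutant 2, and without that library it was 2.47 and did not pass, nor did it without wildtype 2, at 2.79, and without wildtype 1 it was 4.65 and passed. Lhfpl2, a tetraspan membrane protein, had 228 and 250 CPM in mutant members, against 34.5 and 38.7 CPM in wildtype members (log2 fold change 2.67, SE 0.51, edgeR adjusted p = 0.0459). Its libraries agreed closely within each genotype, but it did not pass without wildtype 1, at 2.59, without wildtype 2, at 2.79, or with DESeq2, at 2.68. Igf1 lies at chr10:87858265-87937042 and Lhfpl2 at chr13:94057796-94195409. These 4 genes also passed when members with epithelial UMIs were left out, with log2 fold changes of 2.203 for Dlk1, 2.62 for Meg3, 3.48 for Igf1 and 2.80 for Lhfpl2. In Dkk2-led members alone the values were 2.08, 2.48, 3.30 and 2.84, all past the threshold. Where barcodes with Lum, Ogn, Foxd1, Penk or Alx1 were admitted, Dlk1 was at 0.37, Meg3 at 0.82, Igf1 at 0.42 and Lhfpl2 at 1.74, and none of the 4 passed.

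Calb1, calbindin, a calcium-binding protein of the ureteric tree and the distal nephron, was the gene lower in mutants. It had 0 and 27.3 CPM in mutant members, against 181 and 291 CPM in wildtype members (log2 fold change -3.57, SE 0.64, edgeR adjusted p = 0.0459), and lies at chr4:15881264-15908064. Its 140 members' UMIs were 0 and 14 in mutants and 21 and 105 in wildtype. Without wildtype 2 it did not pass, at -3.22, and without mutant 2 the value was -8.58. In Dkk2-led members it was at 0 in all 4 libraries. Smoc2-led barcodes were 16.1% and 18.7% of members in mutants, against 41.7% and 48.4% in wildtype. Their part in the Calb1 difference was not tested. Among Smoc2-led members alone Calb1 had 0 and 158 CPM in mutants, against 348 and 379 CPM in wildtype. The 0 of mutant 1 comes from 5 barcodes with 28245 UMIs in all. The epithelial share of Smoc2-led members was 80.0% and 36.0% in mutants, against 60.0% and 66.7% in wildtype. These Calb1 values therefore do not hold the make-up of the members constant, and they were not tested.

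Among genes that did not pass, those with the smallest p upward included Sfrp1, another secreted Frizzled-related protein, which had 324 and 799 CPM in mutant members, against 121 and 77.5 CPM in wildtype members (log2 fold change 2.60, edgeR adjusted p = 0.0530). Prrx1, a homeobox factor of mesenchyme, had 158 and 119 CPM in mutant members, against 25.9 and 5.53 CPM in wildtype members (3.51, edgeR adjusted p = 0.0676). Sparcl1, a matricellular protein, had 280 and 390 CPM in mutant members, against 43.2 and 80.2 CPM in wildtype members (2.35, edgeR adjusted p = 0.0676). Ptn, the growth factor pleiotrophin, had 1752 and 1447 CPM in mutant members, against 527 and 354 CPM in wildtype members (1.87, edgeR adjusted p = 0.119). The genotypes did not overlap for any of these 4, but the genes were picked by their small p. Over all tested genes 31.9% showed no overlap. Tsix, which overlaps Xist on the other strand, had 140 and 66.3 CPM in mutant members and 8.63 and 8.30 CPM in wildtype members (3.43, edgeR adjusted p = 0.132), and whether reads were counted by strand is not stated, so it may hold reads of its partner.

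Downward, Ruvbl2, an ATPase of chromatin remodelling complexes, had 8.76 and 5.85 CPM in mutant members and 60.4 and 91.3 CPM in wildtype members (edgeR adjusted p = 0.201). Tfrc, the transferrin receptor, had 8.76 and 19.5 CPM in mutant members and 121 and 71.9 CPM in wildtype members (edgeR adjusted p = 0.413). Cd24a, a surface glycoprotein of developing epithelium, had 263 and 181 CPM in mutant members and 518 and 564 CPM in wildtype members (edgeR adjusted p = 0.682). Uncx, a homeobox factor, had 0 and 3.90 CPM in mutant members and 69.1 and 52.6 CPM in wildtype members, with 2 mutant UMIs in all, and Cops3, a subunit of the COP9 signalosome, had 35.0 and 70.2 CPM in mutant members and 138 and 188 CPM in wildtype members (edgeR adjusted p = 0.701). Malat1 had 6456 and 9420 CPM in mutant members and 3670 and 3882 CPM in wildtype members (1.07, edgeR adjusted p = 0.682). Its levels did not overlap between the genotypes, and its part in these differences was not tested. Haemoglobin was high in wildtype 2 alone. Without its haemoglobin-rich barcode the log2 fold changes were as large, at 2.88 for Dlk1, 2.26 for Meg3, 3.77 for Igf1, 2.66 for Lhfpl2 and -3.58 for Calb1, though each had an adjusted p of 0.054 and 0 genes passed.

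**Figure D4:**
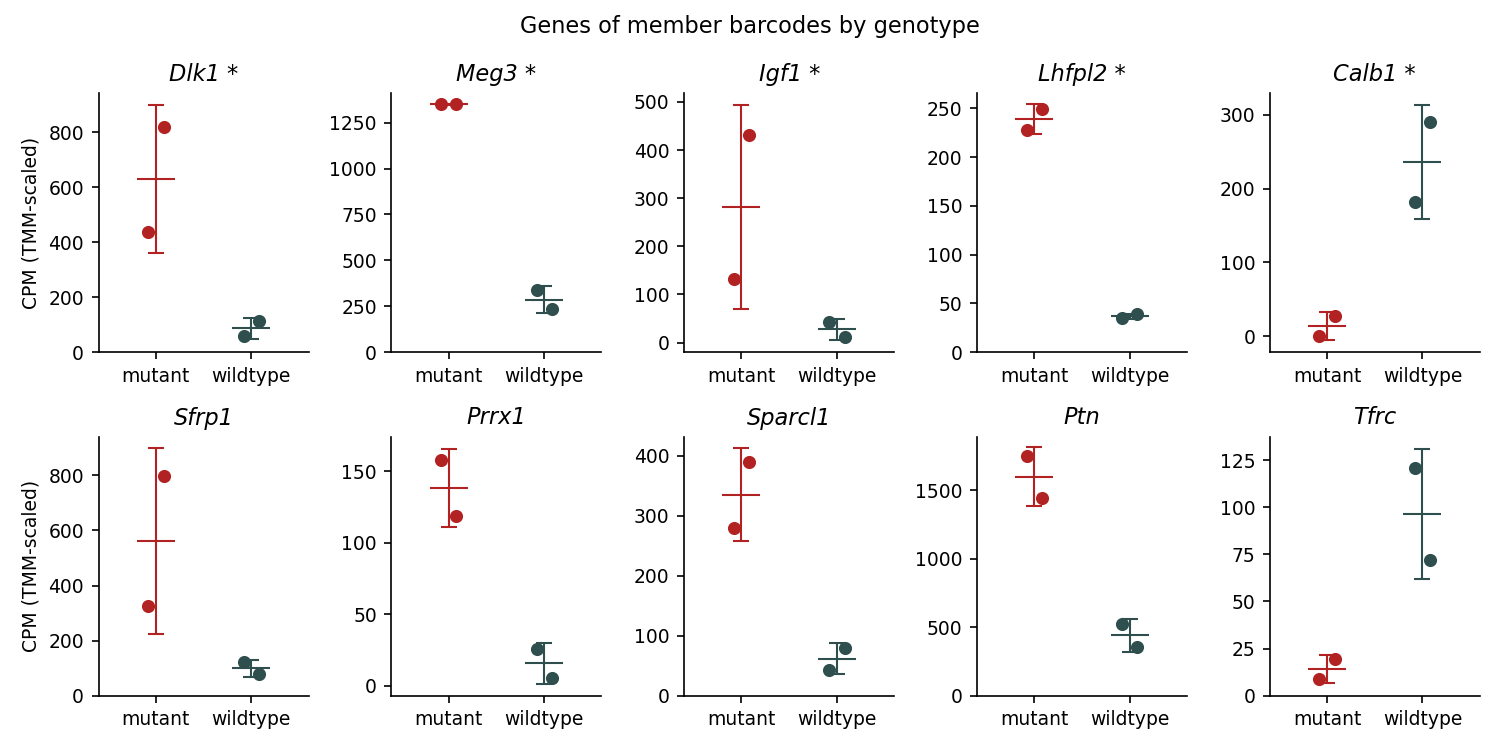
TMM-scaled CPM of 10 genes in members, mutant left and wildtype right, one point per library, with the mean and its SD (n = 2 each) as a bar. The genes with an asterisk, Dlk1, Meg3, Igf1, Lhfpl2 and Calb1, passed at an adjusted p of 0.0459, and Sfrp1, Prrx1, Sparcl1, Ptn and Tfrc did not.

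The targeted genes give no check of the labels in these cells. Hoxa9 had 78.8 and 148 CPM in mutant members and 60.4 and 71.9 CPM in wildtype members, and Hoxd11 had 43.8 and 101 CPM in mutant members and 60.4 and 36.0 CPM in wildtype members. Hoxa10, Hoxd9 and Hoxd10 were also detected in both genotypes, at 43.8 and 93.6, 52.6 and 46.8, and 43.8 and 54.6 CPM in mutants, and at 138 and 105, 25.9 and 63.6, and 60.4 and 36.0 CPM in wildtype. None of the 5 passed, and Hoxa11 had too few counts to be tested. Where the alleles are disrupted is not in the labels, so 3′ counts of these genes cannot tell a disrupted from an intact allele.

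By list, 2 of 11 imprinted genes were higher in mutant members (Dlk1, Meg3), with a median log2 fold change of 0.63, and 1 of 12 growth factor genes was (Igf1). Over all tested genes 0.111% were higher. In the other lists 0 genes passed. The medians were 1.32 over 11 collagens, of which 9 were above 0, 0.70 over 22 other matrix genes, of which 20 were above 0, and 0.45 over 23 stromal transcription factors. They were -0.14 over 13 S phase genes and -0.16 over 15 genes of G2 and M phase. The median over all tested genes was 0.02. The epithelial share of members was lower in both mutant libraries than in both wildtype libraries at full depth, and the genotypes overlapped when thinned to 1000 UMIs. Its part in these medians was not tested.

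Whether the genotype difference was particular to the members was tested as an interaction, the genotype difference in members minus its mean over the 3 other gates. Of 6512 genes 17 passed (0.261%), 10 positive (0.154%) and 7 negative (0.107%), and 312 had an unadjusted p under 0.05. Of the 7 negative ones 3 were haemoglobin genes. Cdkn1c, an imprinted inhibitor of cyclin-dependent kinases, had 1706 and 1597 CPM in mutant members, against 877 and 404 CPM in wildtype members. The Penk/Alx1 gate held 11 and 104 barcodes in mutants, against 42 and 194 in wildtype. There Cdkn1c had 763 and 1146 CPM in mutants, against 5722 and 3761 CPM in wildtype. In Lum/Ogn barcodes it had 1350 and 1251 CPM in mutants, against 1777 and 1205 CPM in wildtype, and in Foxd1/Ntn1/Crabp1 barcodes 2162 and 2108 CPM in mutants, against 1753 and 958 CPM in wildtype. The mutant values lay above the wildtype values in members and in Foxd1/Ntn1/Crabp1 barcodes, overlapped them in Lum/Ogn barcodes and lay below them in Penk/Alx1 barcodes, so higher values in mutants were not particular to members. In members alone Cdkn1c did not pass the genotype test (log2 fold change 1.42, edgeR adjusted p = 0.622). The interaction was 2.01 on the log2 scale (SE 0.17, edgeR adjusted p = 4.66e-28), and it passed in every alternative, with values between 1.77 and 2.27 when 1 library was left out. The gene lies at chr7:143458339-143461050.

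Tgfbi, a matrix protein induced by TGF-beta, had 280 and 363 CPM in mutant members, against 208 and 89.9 CPM in wildtype members. In Lum/Ogn barcodes it had 147 and 152 CPM in mutants, against 204 and 169 CPM in wildtype. The interaction of 1.63 (SE 0.31, edgeR adjusted p = 0.000111) was 0.90 without mutant 2 and 0.95 without wildtype 2 and did not pass then. Sema3c, a secreted semaphorin guidance cue, had 78.7 and 117 CPM in mutant members, against 86.8 and 112 CPM in wildtype members, so the genotypes overlapped. In Penk/Alx1 barcodes it had 0 and 29.99 CPM in mutants, the 0 from only 11 barcodes of mutant 1, against 275 and 175 CPM in wildtype. In Lum/Ogn barcodes it had 19.2 and 17.6 CPM in mutants, against 155 and 143 CPM in wildtype. Its interaction was 2.31 (SE 0.45, edgeR adjusted p = 0.000298), 4.27 without mutant 2 and 2.18 without wildtype 1, and it did not pass in those 2 settings. The other positive genes named by the rule were Akap12 and Alcam, at 1.22 and 1.09. Meg3, looked up after its genotype difference was seen, also passed, at 0.90 (SE 0.21), but not without mutant 2, at 0.64, without wildtype 1, at 0.98, or without wildtype 2, at 0.82. Dlk1, Igf1, Lhfpl2 and Calb1 did not pass.

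On the negative side stood 4 genes of replication-dependent histone H2A, Hist1h2ah at -1.14, Hist1h2ad at -1.07, Hist1h2af at -1.20 and Hist1h2ab at -1.14. Hist1h2ah had 534 and 568 CPM in mutant members, against 321 and 208 CPM in wildtype members, and in Lum/Ogn barcodes 672 and 712 CPM in mutants, against 68.0 and 97.7 CPM in wildtype. Its mutant values lay above its wildtype values in both. These copies are near-identical, so reads may have been divided between them and they do not count as 4 separate results. The values of p in this fit rest on counting noise and an average spread, since for most genes the fit found no gene-specific spread beyond it. With edgeR's bias-adjusted dispersion 13 genes passed, and with DESeq2 1 did, Cdkn1c.

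**Figure D5:**
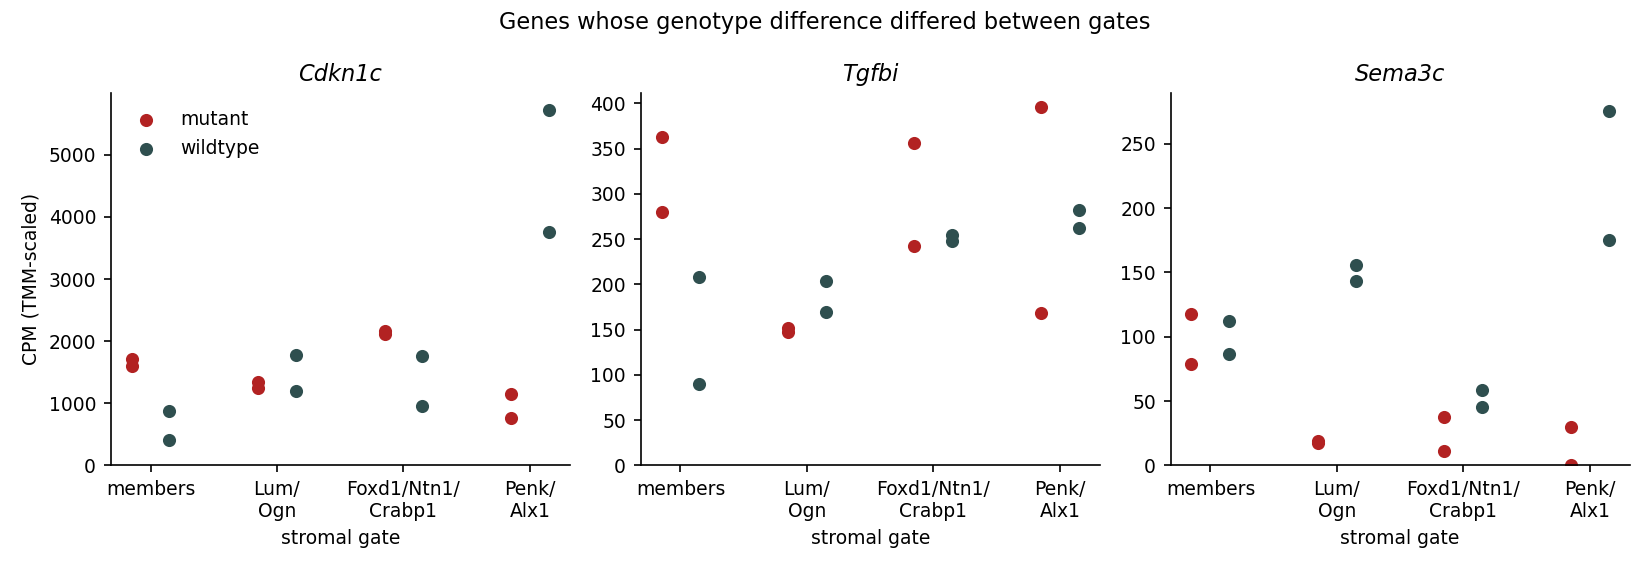
TMM-scaled CPM of Cdkn1c, Tgfbi and Sema3c in members and in the 3 other stromal gates, one point per library, mutants left of wildtype. Cdkn1c was above wildtype in mutant members and far below it in mutant Penk/Alx1 barcodes, and Sema3c overlapped between genotypes in members alone of these gates.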

How the data were processed

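The authors deposited 1 table of UMI counts per library, genes by barcodes, for the 2 mutant and 2 wildtype libraries, per the file headers. Per the submitters' processing notes Bowtie2 version 2.2.7 and mouse build mm10 were used, and the annotation, strand and UMI collapsing are not given in the sources used here. Each deposited barcode held at least 500 genes, and 27932 genes occurred in any library. Total counts were 3572346 and 21350698 UMIs in mutants and 9817486 and 24834658 UMIs in wildtype. Doublets were scored with Scrublet (scanpy 1.11.5), whose own threshold marked 10 barcodes, so it was not used; 7 members were among the 5% of barcodes with the highest scores in their library.

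Counts were summed per library and gate and tested with edgeR 4.0.16 (TMM, filterByExpr, robust quasi-likelihood fit) in R 4.3.3, adjusted by Benjamini-Hochberg, threshold 0.05. DESeq2 1.42.0 was an alternative, with others for the filter on low counts, the mitochondrial limit, the rule, doublets, depth and each library. The scripts were tested on simulated data. Named were genes past the test where 30 or fewer passed, with the 5 in each direction with the smallest p where fewer than 10 did. Against other gates they were the 12 with the largest difference in each direction among genes past the test, with at least 20 CPM on the higher side and 1 direction in all libraries. For the interaction they were the 5 in each direction with the smallest adjusted p, and up to 4 genes past the test were named per list, more where a list is given in full. Predicted, haemoglobin, mitochondrial, ribosomal protein and Y-linked genes and Xist were counted only. Members and the 21 gene lists were chosen with earlier results of these data known. Coordinates are from the GENCODE annotation of mm10.

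Genes described by leading gene were chosen after their values were seen. Mgp, Gucy1a3, Mef2c and Akr1b7 were chosen for higher values in Dkk2-led than in Smoc2-led members in every library. Krt18, Epcam, Fxyd4 and Cldn8 were chosen for the reverse, and Ly6a and Dpp4 for higher values in Egfl6-led than in other members. The labels give both genotypes the numbers 1 and 2 without saying that a number marks a shared litter, batch or day. Some genes that meet these rules are not reported here.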

Additional observations from a re-analysis of the deposited data

Results flagged for a closer look

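By the interaction test, 9 named genes had a genotype difference in members that differed from the mean difference in the 3 other stromal gates. On the log2 scale the differences were 2.01 for Cdkn1c, 2.31 for Sema3c, 1.63 for Tgfbi, 1.22 for Akap12 and 1.09 for Alcam, and -1.14 for Hist1h2ah, -1.07 for Hist1h2ad, -1.20 for Hist1h2af and -1.14 for Hist1h2ab. Akap12 had 219 and 526 CPM in mutant members, against 217 and 121 CPM in wildtype members. Alcam, a cell adhesion molecule, had 437 and 691 CPM in mutant members, against 312 and 146 CPM in wildtype members. Leaving out 1 library ended the call in 3 of 4 cases for each of these 2 genes and in 0 of 4 for Cdkn1c. All 4 histone genes lost it without wildtype 1, at -0.95, -0.75, -0.83 and -0.97 in the order above. With DESeq2 only Cdkn1c passed.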

How the results depend on the processing

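No log2 difference printed for a gene changed sign in any alternative. The member share was higher in both mutant libraries in every setting. The share of members with epithelial UMIs was 20.3%, and 7.03% where only Pecam1 and Lhx1 were excluded. The count of genes that passed the genotype test, 6, was 16 with no filter on low counts, 13 with a replicate block, 12 where only Pecam1 and Lhx1 were excluded, 11 with no mitochondrial limit, 3 at a limit of 5% and 2 with barcodes of at least 2000 UMIs. It was 0 with at least 3 UMIs of the 4 genes, 0 without the highest doublet scores, 0 without the haemoglobin-rich barcode and 0 with a crossed replicate block, and with 1 library left out it ran between 3 and 33. The deviations of same-numbered libraries from their genotype mean had r = -0.20 over 3506 genes. With 2 libraries a genotype this is the same value for both numbers, so it cannot decide whether a number marks a shared litter or batch. The numbers were not taken to pair the libraries because the labels do not say that they do. Against other stroma the count of 418 was 232 with DESeq2, 231 with at least 3 UMIs, 88 with Dkk2-led members alone and 51 without epithelial barcodes, and 157 to 442 with 1 library left out, the lowest without wildtype 2. The interaction count of 17 was 1 with DESeq2, 5 with at least 3 UMIs, 8 with Dkk2-led members alone, 10 without the highest doublet scores, 11 without the haemoglobin-rich barcode, and 6 to 27 with 1 library left out. The cause of these shifts was not tested. Alternatives on Dkk2-led members, epithelial barcodes, haemoglobin, dispersion and the crossed block were chosen after seeing the data. With 2 libraries a genotype and 24 members in wildtype 1, genes of low count could not be tested.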
